A study of Gallus gallus with 16 samples.

Results

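The 10 genes chosen for description are cytokines, a cytokine receptor and parts of the NF-kB pathway: the chemokines IL8L1 and IL8L2, the interleukins IL18, IL1B and IL6, the receptor IL4R, the NF-kB subunits NFKB1 and NFKB2, and the inhibitors NFKBIA and TNFAIP3. A gene was taken where the platform annotation gave its symbol alone on a probe set, and where there were several, the probe set with the highest mean was used. This gave 9 of the 10 genes, out of 11528 genes with a symbol of their own. NFKB2 is not analysed here. RNA came from the jejunum, the middle part of the small bowel, of male broilers on day 21, and each of 16 birds gave one array. There were 4 birds on each of 4 diets, which the labels call H, F, E and A. The series title names saponins and essential oils of oregano, thyme, rosemary and star anise as the feed additives, but the labels give neither the additive behind a letter nor the control diet.

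NF-kB is a family of transcription factors that wait in the cytoplasm bound to inhibitors. Microbial products, interleukin-1 and tumour necrosis factor lead to breakdown of the inhibitor, the subunits enter the nucleus, and genes for chemokines, cytokines and for the inhibitors themselves are transcribed. In the intestine this pathway is active in epithelial cells as well as in immune cells. IL8L1 and IL8L2 are neighbouring chicken genes of the interleukin-8 type, on chromosome 4 in the RefSeq annotation of assembly GRCg7b, and their products attract heterophils and other leukocytes.

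The chemokine IL8L1 had its highest diet mean in diet H and its lowest in diet A, and this was the widest gap among the 9 genes. The 4 birds on diet H had log2 levels of 7.09, 6.98, 6.82 and 6.84, and the birds on diet F had 6.30, 6.23, 7.86 and 5.06. The birds on diet E had 6.22, 5.84, 6.32 and 5.84, against 4.41, 5.09, 5.31 and 5.79 on diet A. All birds on diets H and E lay above all birds on diet A, while diet F held both the highest bird of the series and one that lay under 3 birds on diet A. The means were 6.93 ± 0.12 in diet H, 6.36 ± 1.15 in diet F, 6.06 ± 0.25 in diet E and 5.15 ± 0.57 in diet A (SD, n = 4 each). The log2 difference of diet H minus diet A was 1.79 (SE 0.418, 95% interval 0.90 to 2.67), a fold of 3.45, and did not pass over all probe sets (limma adjusted p = 0.197). The lowest diet A bird, replicate 1 at 4.41, stood at percentile 24 of its array and may be near background. Without that bird the difference was 1.54. Neighbours in this order of means did not pass either: diet H minus diet F was 0.57 (SE 0.418), diet F minus diet E was 0.31 and diet E minus diet A was 0.91, each with the same SE and with limma adjusted p of 0.842, 0.9998 and 0.64.

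IL8L2, the neighbouring chemokine, had the same order of diet means with more overlap. Its levels were 5.79, 5.71, 6.36 and 5.02 in diet H, 5.02, 5.40, 5.81 and 5.24 in diet F, 5.24, 6.02, 5.08 and 4.88 in diet E, and 4.73, 5.19, 4.24 and 4.95 in diet A. In diet H 3 of the 4 birds lay above every bird on diet A, and the remaining bird lay under the highest of them. The difference of diet H minus diet A was 0.94 (SE 0.294, 95% interval 0.32 to 1.57), with a limma adjusted p of 0.244. The lowest diet A bird, replicate 3 at 4.24, stood at percentile 21.8 of its array and may also be near background. Without that bird the difference was 0.76.

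**Figure D1:**
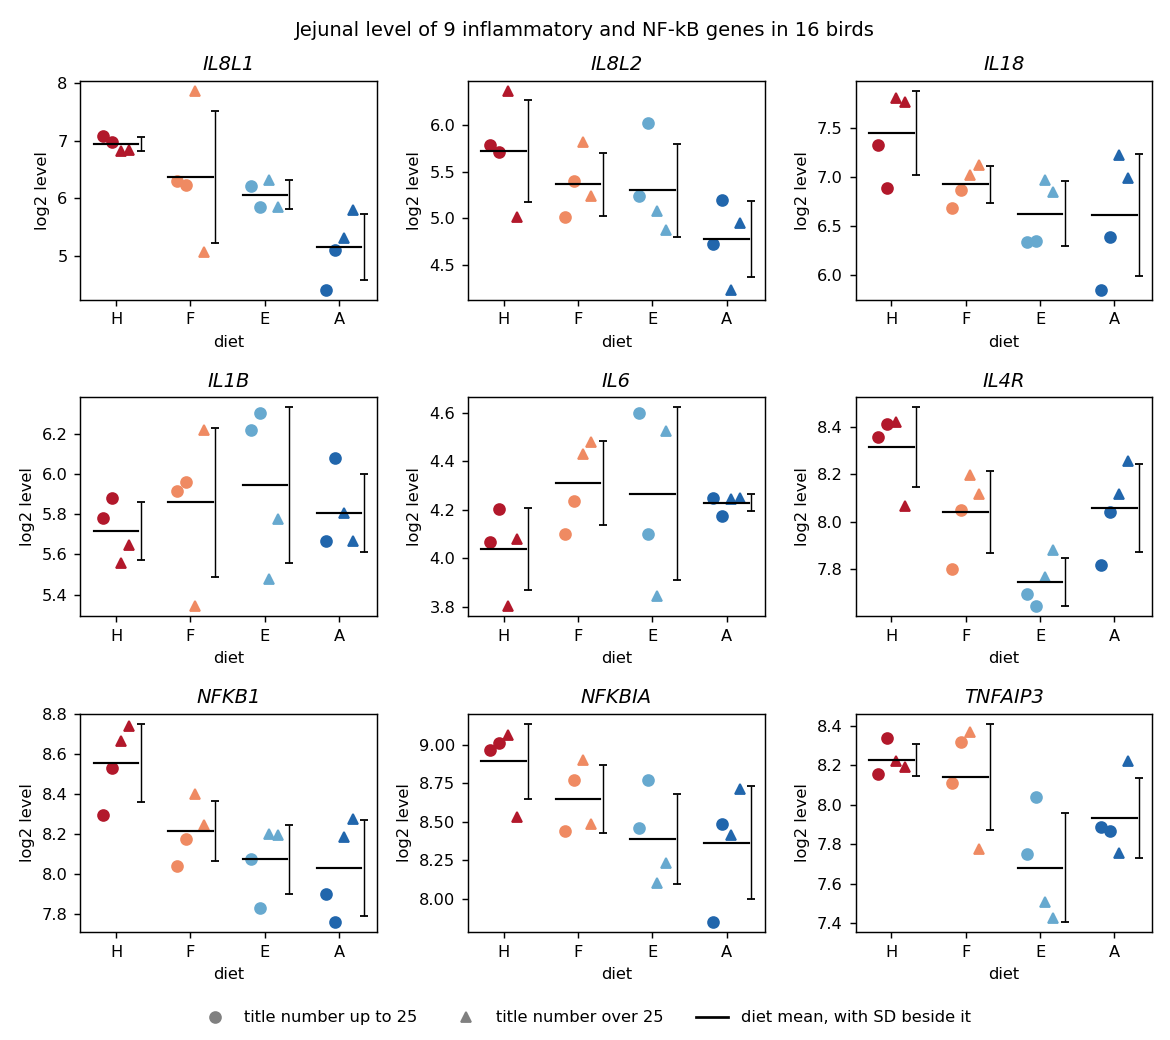
Log2 levels (vertical axes) of the 9 genes in single birds by diet (horizontal axes, n = 4 each); circles are birds with title numbers up to 25, triangles birds with numbers over 25, lines diet means and bars SD. The diet H birds of IL8L1 sit between 6.82 and 7.09, and in IL18 and NFKB1 the triangles lie above the circles within every diet.

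IL18, an interleukin-1 family cytokine stored as an inactive precursor in intestinal epithelium and macrophages, was also highest in diet H. Its levels were 7.33, 6.89, 7.80 and 7.76 in diet H, 6.68, 6.86, 7.03 and 7.12 in diet F, 6.34, 6.35, 6.97 and 6.85 in diet E, and 5.85, 6.39, 7.22 and 6.99 in diet A. The groups overlapped, since the lowest bird on diet H lay under both of the higher birds on diet A. The means were 7.45 ± 0.43, 6.92 ± 0.19, 6.63 ± 0.33 and 6.61 ± 0.62 in diets H, F, E and A (SD, n = 4). Diet H minus diet A was 0.83 (SE 0.274, limma adjusted p = 0.257) and diet H minus diet E was 0.82 (SE 0.274, limma adjusted p = 0.479).

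The classical inflammatory cytokines IL1B and IL6 did not share this order. IL1B, a central activator of NF-kB and a target of it, ranged from 5.56 to 5.88 in diet H, from 5.34 to 6.22 in diet F, from 5.48 to 6.31 in diet E and from 5.67 to 6.08 in diet A. Diet H minus diet A was -0.09 (SE 0.199, 95% interval -0.51 to 0.33, limma adjusted p = 0.899). IL6, an inducer of the acute phase response, ranged from 3.804 to 4.205 in diet H, from 4.10 to 4.48 in diet F, from 3.85 to 4.60 in diet E and from 4.18 to 4.25 in diet A. All of its diet means, 4.04, 4.31, 4.27 and 4.23 in diets H, F, E and A, were below the lower quartiles of the arrays (4.447 or more), so its level may be near background. Diet H minus diet A was -0.19 (SE 0.154, 95% interval -0.52 to 0.14, limma adjusted p = 0.666), and -0.11 without diet H replicate 3. Diets accounted for 9.54% of the variance of IL1B between birds and 23.4% of that of IL6, where the median over all probe sets was 21.3%. The corresponding shares for IL4R, NFKB1 and IL8L1 were 67.9%, 60.5% and 56.3%, given as a description.

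IL4R, the receptor chain shared by interleukin-4 and interleukin-13, had its lowest diet mean in diet E. Its levels were 8.36, 8.41, 8.42 and 8.07 in diet H, 7.80, 8.05, 8.20 and 8.12 in diet F, 7.70, 7.65, 7.77 and 7.88 in diet E, and 7.82, 8.04, 8.12 and 8.26 in diet A. Every bird on diet H lay above every bird on diet E, by a mean of 0.57 (SE 0.125, 95% interval 0.30 to 0.83, limma adjusted p = 0.479), and this was the 10th smallest p of all probe sets in that comparison. Diet E minus diet A was -0.31 (SE 0.125, limma adjusted p = 0.613) and diet H minus diet A was 0.25 (SE 0.125, limma adjusted p = 0.46). The other IL4R probe set gave 0.28 for diet H minus diet E (SE 0.127, limma adjusted p = 0.521), with the birds of these diets overlapping, and -0.08 for diet E minus diet A. For diet F minus diet E it gave 0.06 (SE 0.127), where the probe set used gave 0.29 (SE 0.125).

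NFKB1, the precursor of an NF-kB subunit, followed the diet order of IL8L1 with a smaller gap. Its levels were 8.29, 8.53, 8.66 and 8.74 in diet H, 8.04, 8.18, 8.402 and 8.24 in diet F, 8.07, 7.83, 8.20 and 8.19 in diet E, and 7.90, 7.76, 8.18 and 8.27 in diet A. Diets E and A had no bird as high as the lowest bird on diet H. Diet H minus diet A was 0.53 (SE 0.142, 95% interval 0.22 to 0.83), a fold of 1.44, with a limma adjusted p of 0.208. Diet H minus diet E was 0.48 (limma adjusted p = 0.479) and diet H minus diet F was 0.34 (limma adjusted p = 0.842), each with an SE of 0.142.

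NFKBIA and TNFAIP3 encode inhibitors that NF-kB itself induces: the first holds NF-kB in the cytoplasm, and the second edits ubiquitin chains on the signalling proteins upstream. NFKBIA had levels of 8.96, 9.01, 9.07 and 8.53 in diet H, 8.44, 8.77, 8.90 and 8.48 in diet F, 8.46, 8.77, 8.10 and 8.23 in diet E, and 7.84, 8.49, 8.41 and 8.71 in diet A. In diet H 3 birds lay above all birds on the other 3 diets, and the last lay within their range. Diet H minus diet A was 0.53 (SE 0.195, limma adjusted p = 0.318), and the difference was 0.36 without diet A replicate 1, its lowest bird. TNFAIP3 had levels of 8.15, 8.34, 8.22 and 8.19 in diet H, 8.11, 8.32, 8.37 and 7.78 in diet F, 7.75, 8.04, 7.51 and 7.42 in diet E, and 7.89, 7.87, 7.76 and 8.22 in diet A. Diet H lay above every bird on diet E, by 0.55 (SE 0.158, limma adjusted p = 0.479), and overlapped with diet A, from which it differed by 0.29 (SE 0.158, limma adjusted p = 0.494). Diet F minus diet E was 0.46 for TNFAIP3 (SE 0.158, limma adjusted p = 0.9998).

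**Figure D2:**
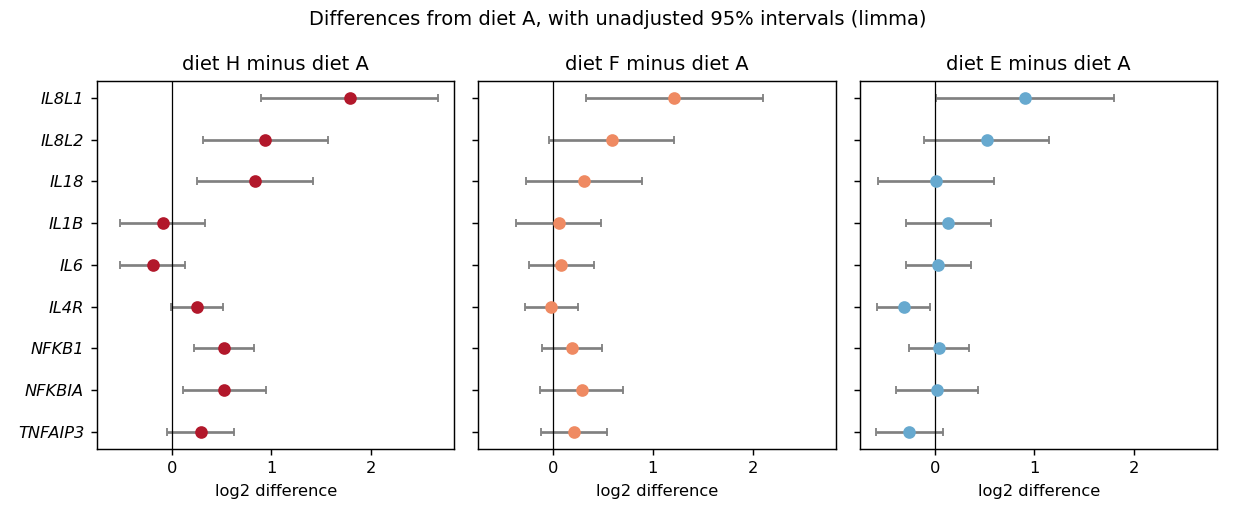
Log2 differences (horizontal axes) of diets H, F and E minus diet A for the 9 genes, with limma's 95% intervals, not adjusted for multiple tests; the 3 panels share the diet A birds. For IL8L1 the differences are 1.79, 1.21 and 0.91, and for IL1B they are -0.09, 0.05 and 0.14.

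No member passed in any comparison of diets with diet alone in the model. In limma's F test over the 4 diets 0 of the 9 genes passed, where 0% of the 20804 probe sets did, with adjusted p between 0.581 and 0.89. At an unadjusted p under 0.05 the F test held 6 of the 9 genes, IL8L1, IL8L2, IL18, IL4R, NFKB1 and TNFAIP3, and 8.15% of all probe sets. Between diets H and A 0 of 9 passed (0.00481% of all probe sets), 5 of 9 had an unadjusted p under 0.05 with the higher level in diet H (5.62% of all probe sets), and 2 of 9, IL8L1 and NFKB1, had all diet H birds above all diet A birds (2.89%). A difference above 0 was seen in 7 of 9 (50.2%), and the median difference of the 9 genes was 0.53, against 0.00101 over all probe sets. Between diets H and E 0 of 9 passed (0%), and 5 of 9 were higher in diet H at an unadjusted p under 0.05 (3.86%). Between those diets 4 of 9, IL8L1, IL4R, NFKB1 and TNFAIP3, had no overlap of birds (2.1%), 7 of 9 had a difference above 0 (45.1%), and the median difference was 0.50, against -0.03 over all probe sets. These comparisons share the diet H birds. The 9 genes were chosen with earlier results of these data known, so the counts are a description and not a test of the set. The genes are also not counted as independent. With diet means kept, 8 of their 36 pairs passed for correlated levels (Pearson's r, permutation test). Those levels include the diet differences counted here, so they do not show dependence beyond diet. With diet means subtracted, 0 pairs passed by Pearson's r and 1 by Spearman's rho.

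The remaining pairs held fewer such genes. Between diets H and F 0 of 9 passed (0%), and 2 of 9, IL4R at 0.27 (SE 0.125) and NFKB1, were higher in diet H at an unadjusted p under 0.05 (2.02%). Between diets F and A 0 passed (0%), and 1 of 9, IL8L1 at 1.21 (SE 0.418, limma adjusted p = 0.721), was higher in diet F at an unadjusted p under 0.05 (3.78%). That difference was 0.71 without diet F replicate 3 and 1.65 without diet F replicate 4. Between diets F and E 0 passed (0%), and IL4R and TNFAIP3 were higher in diet F at an unadjusted p under 0.05 (1.29%). Between diets E and A 0 passed (0%), IL8L1 was higher in diet E at that level (4.74%) and without overlap of birds (2.49%), and IL4R was lower (2.97%).

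IL18 and NFKB1 also differed with the numbers in the sample titles. These numbers fall into a lower range, up to 25, and an upper range, each holding 2 birds per diet, and the labels do not say what a number stands for. In each of the 4 diets both birds of the upper range lay above both birds of the lower range, for IL18 as for NFKB1. With diet in the model, IL18 was higher in the upper range by 0.63 (SE 0.109, limma adjusted p = 0.00278; means 7.22 in the upper and 6.59 in the lower range). NFKB1 was higher there by 0.29 (SE 0.0664, limma adjusted p = 0.0157; means 8.36 and 8.08 in the upper and lower ranges). Of all probe sets 8.39% passed in that comparison, and of the 9 genes these 2 did; IL1B had a difference of -0.29, upper minus lower range (limma adjusted p = 0.153).

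With that range as a block, IL18 and NFKB1 passed between diets H and A, both with a limma adjusted p of 0.0436. In that model 0.534% of all probe sets passed, and IL8L1 had a limma adjusted p of 0.0676. The ranges were compared only after seeing the data, and IL18 and NFKB1 were the members that differed between them. Their pass is therefore given as a description. With birds of adjacent numbers as random blocks, neither gene passed (limma adjusted p = 0.437 for IL18 and 0.418 for NFKB1). Each such block lay within a single diet and range, so that model did not take out the difference between the ranges. Within the lower and the upper range alone, diet H minus diet A was 2.29 and 1.28 for IL8L1, 0.79 and 1.09 for IL8L2, 0.99 and 0.68 for IL18 and 0.58 and 0.47 for NFKB1. The same pair of values was 0.82 and 0.24 for NFKBIA, 0.45 and 0.055 for IL4R, and 0.37 and 0.22 for TNFAIP3. IL1B had -0.04 and -0.14, and IL6 had -0.07 and -0.30. No limma adjusted p of these genes was under 0.05 in these sets of 2 birds against 2. With a linear term for the title number the differences of IL18 and NFKB1 were 0.36 and 0.31 and did not pass (limma adjusted p = 0.66 and 0.511). Within a range the title numbers follow the order of the diets A, E, F and H, so this covariate is partly the diet.

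The other genes of the pathways were taken from lists of 225 symbols, which were also chosen with earlier results of these data known. Of these symbols 132 were measured, and 0 passed between any pair of diets. Between diets H and A 19 of the 132 were higher in diet H at an unadjusted p under 0.05 and 2 were lower (5.62% and 5.91% of all probe sets), and their median difference was 0.01. The nearest relatives of the listed NF-kB genes had 4 measured members, of which 2 were higher in diet H at that level. NFKBIZ, a nuclear inhibitor-like protein that NF-kB induces, had means of 9.47 in diet H and 8.50 in diet A, a difference of 0.97 (SE 0.276, limma adjusted p = 0.219). REL, the c-Rel subunit, had 8.26 in diet H and 7.88 in diet A, a difference of 0.38 (SE 0.133, limma adjusted p = 0.29). In both genes every bird on diet H lay above every bird on diet A, as in 2.89% of all probe sets. They were named for their small p in this same comparison. The other 2 measured genes of the list had a difference below 0. NKIRAS2, a small GTPase that slows degradation of the inhibitors, differed by -0.19.

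Among 13 feedback regulators 5 had higher levels in diet H at an unadjusted p under 0.05 and 0 were lower (5.62% and 5.91% of all probe sets), and their median difference was 0.18. TNIP2, which binds the TNFAIP3 protein, differed by 0.53 (SE 0.181), the phosphatase DUSP1 by 0.64 (SE 0.241) and TOLLIP, an adaptor that dampens interleukin-1 signalling, by 0.33 (SE 0.133), with limma adjusted p between 0.275 and 0.367. Of 23 kinases and adaptors 4 were higher and 1 lower at that level, against the same shares of all probe sets, with a median of 0.17. RIPK1 and IRAK4, kinases below the tumour necrosis factor and interleukin-1 receptors, differed by 0.41 (SE 0.147) and 0.36 (SE 0.14), and TRADD, an adaptor of the tumour necrosis factor receptor, by -0.31 (SE 0.13). The limma adjusted p of these were 0.307, 0.355 and 0.375, and RIPK1 differed by 0.26 without diet A replicate 1.

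Other ligands and receptors had medians of -0.06 for 34 ligands and 0.04 for 36 receptors, against 0.00101 over all probe sets. At an unadjusted p under 0.05, 3 ligands were higher in diet H and 1 lower, and 4 receptors were higher and 0 lower. The shares of all probe sets were 5.62% higher and 5.91% lower. CCL20, a chemokine of the intestinal epithelium, had means of 6.85 in diet H and 5.88 in diet A. All of its diet H birds were higher, as in 2 of the 34 ligands and 2.89% of all probe sets. The difference was 0.97 (SE 0.313, limma adjusted p = 0.255), and it was 0.63 without diet H replicate 2. CCR6, the receptor of CCL20, differed by 0.44 (SE 0.177, limma adjusted p = 0.367). TNFSF15, a tumour necrosis factor family cytokine, differed by 0.53 and MIF, macrophage migration inhibitory factor, by -0.63 (limma adjusted p = 0.299 and 0.32). IL22RA2, the soluble receptor that captures interleukin-22, differed by 0.65 (SE 0.186) and IFNGR2, a chain of the interferon gamma receptor, by 0.45 (SE 0.151), with limma adjusted p of 0.219 and 0.274. Of 22 inflammatory target genes 1 was higher at an unadjusted p under 0.05 (5.62% of all probe sets), and 7 had a difference above 0 (50.2% of all probe sets) and 15 one below 0, with a median of -0.06. That 1 gene was NOS2, the inducible nitric oxide synthase, at 0.37 (SE 0.167, limma adjusted p = 0.412), while lysozyme LYZ stood at -0.43 (SE 0.256) and the mitochondrial dismutase SOD2 at -0.23 (SE 0.141), with limma adjusted p of 0.538 and 0.554. Without diet H replicate 4 these were -0.29 for LYZ and -0.12 for SOD2.

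**Figure D3:**
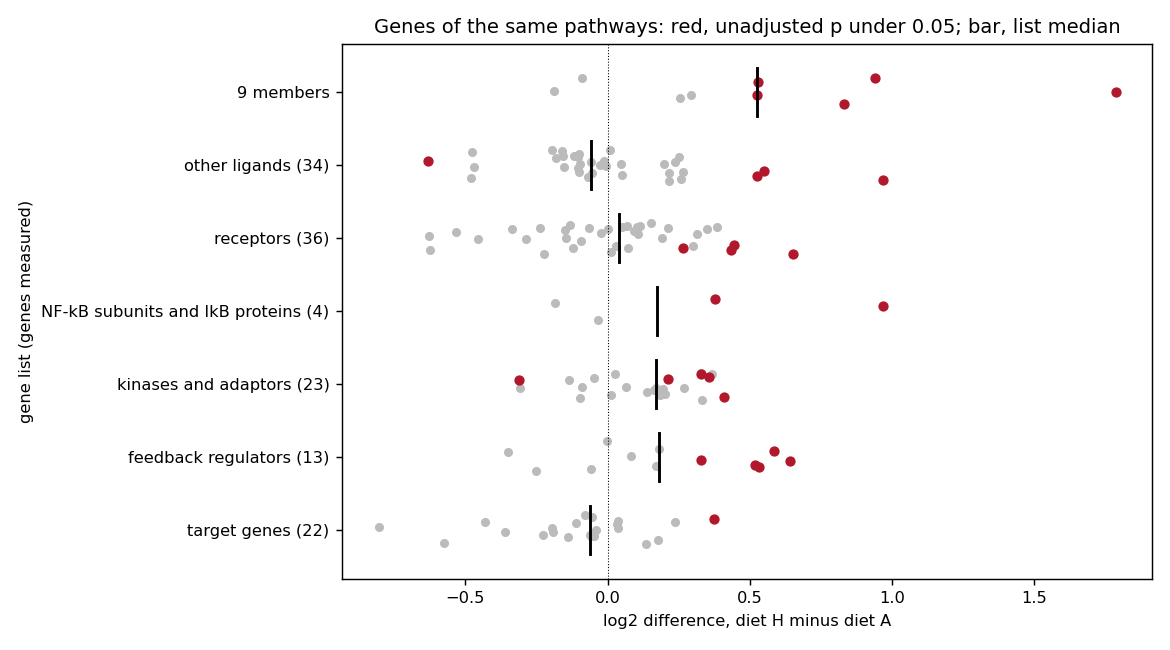
Log2 differences of diet H minus diet A (horizontal axis) for the 9 genes and for 6 lists of related genes; points are genes, red those with an unadjusted p under 0.05, and bars are medians. The medians are 0.53 for the 9 genes, between 0.17 and 0.18 for NF-kB relatives, kinases and feedback regulators, and -0.06 for target genes.

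Markers of intestinal epithelium were high on every array. Of 15 enterocyte markers 13 were measured, led by APOA1, the aminopeptidase ANPEP and sucrase-isomaltase SI with means of 13.7, 12.9 and 12.6. Of 15 pancreas and liver markers 9 were measured, led by CELA1, AMY1A and CTRC with means of 5.75, 5.51 and 5.38. Albumin ALB averaged 3.96. The highest single arrays stood at 6.96 for AMY1A and 6.60 for ALB. The marker lists stood as follows in diets H and A, and their part in the values above was not tested. The mean over the enterocyte list ranged from 11.78 to 11.97 in diet H birds and from 11.52 to 11.81 in diet A birds. Of its 13 genes 11 had a difference above 0, as had 50.2% of all probe sets. The list medians against diet A were similar in diets H, F and E, at 0.133, 0.122 and 0.113. At an unadjusted p under 0.05, 3, 0 and 2 of the 13 were higher in these diets (5.62%, 3.78% and 4.74% of all probe sets). In diet H 3 of the 13 had all birds above those on diet A (2.89%). For diet H minus diet A, MEP1A stood at 0.89, SLC15A1 at 0.57 and CDH17 at 0.30 (limma adjusted p = 0.411, 0.318 and 0.371). SI and CDX1 were below 0, at -0.05 and -0.21. The mean over 11 T and NK lymphocyte markers ranged from 7.10 to 7.89 in diet H and from 7.32 to 8.29 in diet A. Of these markers 10 had a difference below 0, where 50.2% of all probe sets had one above 0. CD8A stood at -0.70 and CD3D at -0.47 (limma adjusted p = 0.404 and 0.411). The 1 marker above 0 was GZMA, the highest of the list with a mean of 11.24, at 0.06 (limma adjusted p = 0.98). The mean over 8 macrophage and dendritic markers ranged from 5.13 to 6.15 in diet H and from 5.68 to 6.50 in diet A. C1QC stood at -1.09 (limma adjusted p = 0.517). All 8 had a difference below 0, where 50.2% of all probe sets had one above 0. This was not particular to diet H: against diet A, all 8 were also lower in diet E and 7 in diet F. The medians against diet A were -0.227, -0.224 and -0.221 in diets H, F and E. Of the T and NK markers 10 were lower in diet E than in diet A, and 9 in diet F. Their medians against diet A were -0.361, -0.072 and -0.192 in diets H, F and E, so the shift was largest in diet H. Diet H minus diet F had a median of -0.347 for them, and diet H minus diet E one of -0.139. Of 4 measured B lymphocyte markers 3 had a difference below 0, and the list median was -0.10. JCHAIN, the joining chain of secreted immunoglobulin, stood at -1.80 (limma adjusted p = 0.442), while CD79B, POU2AF1 and CD72 stood at -0.16, -0.05 and 0.0036. Of 20 listed heterophil and granule markers only 3 were measured, so these cells are thinly covered. For diet H minus diet A, CSF3R, the receptor for granulocyte colony-stimulating factor, stood at -0.13 and LYG2 at -0.0043. EPX, the eosinophil peroxidase, stood at 0.06 (limma adjusted p = 0.8, 0.998 and 0.909 in this order). Diet E differed more: diet H minus diet E had a median of -0.458 for these 3, with 2 below 0 and 1 above. Diet E minus diet A had a median of 0.326, with 2 above 0 and 1 below. The medians over all probe sets were -0.03 and 0.026, and none of the 3 passed. In whole tissue, fewer cells of a type and less RNA per cell cannot be told apart.

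Birds also differed within diets. The within-diet SD of IL8L1, pooled over the diets, was 0.657, above that of 97.2% of the 1000 probe sets nearest to it in mean level. Its SD was uneven, at 0.12, 1.15, 0.25 and 0.57 in diets H, F, E and A. The pooled SD of IL4R, 0.159, was above that of 25.5% of its own nearest. After subtraction of diet means, 36 pairs of the 9 genes were correlated over the 16 birds, and 0 passed with Pearson's r, where 7 had an unadjusted permutation p under 0.05. IL8L2 and NFKBIA had r = 0.69 (permutation p = 0.0101, adjusted 0.174) and a Spearman rho of 0.84 (permutation p = 0.00133, adjusted 0.0479), and r was 0.55 without the 2 birds farthest from the median of IL8L2. Within the lower and upper title number ranges their r was 0.85 and 0.93. Each diet has only 2 birds in a range, and their deviations from their mean mirror each other. Every r within a range therefore rests on a single difference per diet, and none was tested. The inhibitors NFKBIA and TNFAIP3 had r = 0.66 and rho = 0.67 (permutation p = 0.0148 and 0.0136, adjusted 0.174 and 0.129), with r = 0.83 without the 2 farthest birds and 0.49 and 0.68 in the lower and upper ranges.

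IL18 and NFKB1 had the highest r, 0.71, with a rho of 0.72 (permutation p = 0.0193 and 0.0143, adjusted 0.174 and 0.129), and r = 0.73 without the 2 birds farthest from the median of IL18. With the title number range removed as well as diet, their r was -0.12, and within the lower and upper ranges it was -0.56 and -0.70. The positive r was thus not seen within the ranges, where each diet held only 2 birds and r was not tested. IL1B ran opposite to NFKB1 between birds, with r = -0.60 (rho = -0.61, permutation p = 0.0142 and 0.0132, adjusted 0.174 and 0.129). That r was -0.53 without the 2 birds farthest from the median of IL1B, and -0.26 with the title number range removed as well as diet. Within the lower and upper ranges it was -0.29 and -0.78.

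**Figure D4:**
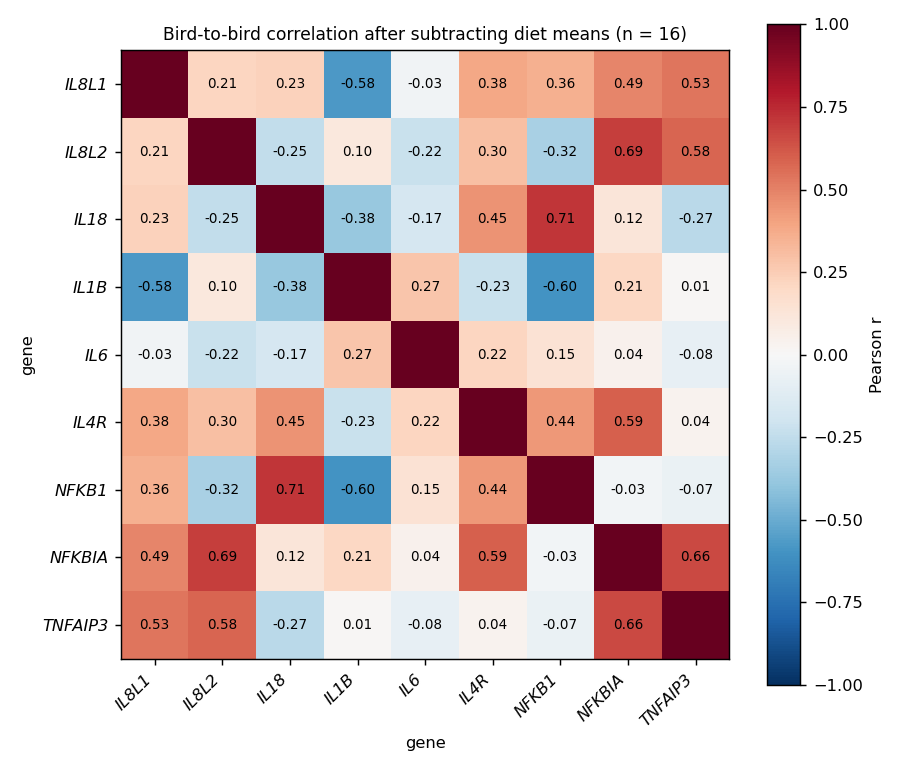
Pearson's r between the 9 genes (both axes) over 16 birds after diet means were subtracted; red is positive and blue negative. NFKBIA correlates with IL8L2 at 0.69 and with TNFAIP3 at 0.66, and IL18 with NFKB1 at 0.71.

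The genes whose levels over the 16 arrays were most like those of a member are given as a description, without a test, since diet and title number range enter them. IL8L1 was most like HEPH, a ferroxidase of iron absorption (r = 0.93), CAPN8, a calpain protease (r = 0.90), and ERRFI1, which dampens epidermal growth factor receptor signalling (r = 0.89). NFKBIA was most like the epithelial transcription factor KLF5 (r = 0.90), NT5C1B and PHLDA2 (r = 0.88 each). TNFAIP3 and IL8L2 were both like MAFK, a small Maf transcription factor (r = 0.85 and 0.76), and IL8L2 was closest to CYP24A1, the vitamin D 24-hydroxylase, at 0.77. IL18 was most like CWC22, RLIM and TTC3 (r = 0.96, 0.95 and 0.95), and NFKB1 most like ZBTB21, RNF114 and SUGT1 (r = 0.93, 0.92 and 0.91). IL4R was closest to SLC30A9, RSPRY1 and CALCOCO2 (r = 0.87, 0.86 and 0.86). TNFAIP3 was further like the transporter SLC22A3 and the phosphatase DUSP6 (r = 0.85 and 0.82). IL1B was most like STAB2, MDGA1 and PROM2 (r = 0.85, 0.84 and 0.83) and IL6 most like CCDC63, TP53I3 and LRIT1 (r = 0.81, 0.80 and 0.79).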

How the data were processed

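Total RNA of each bird was copied, labelled with biotin and hybridised to a 1-colour Affymetrix array, per the labels' protocols. The authors' deposited table gives 1 value per probe set and array, read here as log2 intensity from its range (0.785 to 14.5). How values were summarized and normalized, and the log base, is not given in the sources used here, and folds rest on base 2. GCOS 1.1.1 is named per the submitters' processing notes. Array medians lay between 5.94 and 6.10 and the lowest correlation between arrays was 0.952. Symbols came from GEO's platform annotation (12300 of 20804 probe sets had 1 symbol), and all 9 members matched RefSeq by gene number.

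All 16 arrays entered one model with limma 3.58.1 in R 4.3.3 (lmFit, eBayes), with a term for each diet. P-values carry Benjamini-Hochberg adjustment for the 20804 probe sets, and 0.05 was the threshold. Differences are the first diet named minus the second. Birds are separate animals per the series' design text. Precision is limited by 4 arrays per diet. The within-diet correlations were tested with 100000 permutations within diets, two-sided, adjusted over 36 pairs. The fit was checked on simulated data.

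The members and lists were chosen with earlier results of these data known. Named were all members, the 3 genes of each list with the smallest p between diets H and A, the 3 genes most like each member, and leading markers. The comparison of title number ranges was chosen after seeing the data. Alternatives were quantile normalization, median centring, a filter on low probe sets, removal of duplicate profiles, the title number range as block, neighbouring numbers as a random block, the number as a covariate, trend and robust moderation, only 2 diets in the fit, and each bird left out.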

Additional observations from a re-analysis of the deposited data

Results flagged for a closer look

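Of 36 sets of 4 birds (9 genes in 4 diets), 1 held a bird far from the other 3. The lowest diet A bird had an IL6 level of 4.18, where the other 3 averaged 4.25, and the gap was 0.949 of the range in that diet, above the 95% critical value of Dixon's test. The whole spread of that diet was small (SD 0.0359), and chance alone flags about 1 in 20 such sets.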

How the results depend on the processing

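The count of members called was 0 in all 7 tests and stayed 0 under every alternative run, except between diets H and A with the range of title numbers as block, where it was 2, IL18 and NFKB1 (111 probe sets called in all, against 1 without the block). Leaving out any single bird gave a count of 0 in each of these tests. Between diets H and A, IL1B changed sign with the title number as a covariate (0.13) and without diet A replicate 2 (0.0023, where its range over birds left out was -0.14 to 0.0023). No other difference that was recomputed under the alternatives changed sign. The title number as a covariate made 12 of the 39 differences smaller by over 1.5 times, beside the change of sign of IL1B. The mean over both IL4R probe sets was -0.20 for diet E minus diet A and 0.18 for diet F minus diet E. IL8L1 between diets H and A ran from 1.65 to 1.81 over the alternatives (limma adjusted p 0.0676 to 0.44) and from 1.54 to 1.998 over birds left out. With birds of neighbouring numbers as a random block (correlation 0.173), no member passed. The count of correlated pairs by Pearson's r was 0 after subtraction of diet means, 0 without the 2 farthest birds and 8 for levels with diet means kept. Without the 2 farthest birds the smallest adjusted permutation p was 0.0522, shared by NFKBIA with TNFAIP3 and IL4R with NFKB1. By Spearman's rho the count was 1 after subtraction, IL8L2 with NFKBIA. IL6 could not be given with the lowest 25% of probe sets left out. No paired analysis was possible because the replicate numbers only name birds in accession order. The arrays give no signal over background here, which limits what can be said of IL6 and of the lowest diet A birds of IL8L1 and IL8L2.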
